A study of Homo sapiens with 8 samples.

Results

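Keratins are the intermediate filament proteins of epithelial cells, and desmosomes are the junctions that anchor those filaments between neighbouring cells. The genes described here are the numbered keratins without pseudogenes, the desmogleins DSG1 to DSG4, the desmocollins DSC1 to DSC3, the plakophilins PKP1 to PKP4, the plakins DSP, PPL, EVPL and PLEC, and PERP. They numbered 64 of the 18244 genes on the array, 48 keratins and 16 desmosome genes, each read by its brightest probe set with a single gene symbol. They were measured in A549 and PC9, both established human lung adenocarcinoma lines, on 8 single-colour arrays in 4 groups of 2. The groups were A549 with EN2, A549 NC, PC9 with EN2 and PC9 NC, where NC carried the Neo retroviral vector alone. EN2 encodes an engrailed homeobox transcription factor. All 4 groups had been infected with retrovirus from 293FT packaging cells and selected with the drug that the labels spell genemycin. A549 was grown in F-12K and PC9 in Dulbecco's medium, so medium and line cannot be told apart. The labels do not give the promoter that drove EN2, whether the stable cells were clones or pools, or whether replicates were separate cultures. The p-values therefore measure only the spread between these arrays, which may be technical.

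Keratins pair as a type I chain with a type II chain, and the pairs form the filaments that give an epithelial cell its mechanical strength. Simple epithelia such as lung lining carry mainly KRT8 and KRT7 of type II with KRT18 and KRT19 of type I, while KRT5, KRT14 and KRT15 belong to basal cells, KRT4 and KRT13 to moist stratified epithelia, and many higher numbers to hair and nail. In a desmosome the cadherins of the desmoglein and desmocollin families bind across the gap between cells. Their inner ends are held by plakophilins and plakoglobin, and desmoplakin ties these to keratin. Periplakin and envoplakin link filaments to the cell envelope, plectin links filaments to hemidesmosomes and other cytoskeletal fibres, and PERP is a membrane protein that desmosomes of stratified epithelium need in mice. Type I keratins lie in a cluster on chromosome 17, type II keratins and KRT18 on chromosome 12, and the desmosomal cadherins side by side on chromosome 18.

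The EN2 probe set read 7.67 ± 0.064 in A549 EN2 arrays against 6.52 ± 0.067 in A549 NC arrays (log2 signal, SD, n = 2 each), a difference of 1.15 that passed the test (limma with Benjamini-Hochberg adjustment over all genes, adjusted p = 0.00028). It lost the call in a fit that adds the array's 18S rRNA signal (1.11, limma adjusted p = 0.13) and without the 2 A549 arrays at the ends of that signal (1.15, adjusted p = 0.0697). In PC9 it read 6.32 ± 0.11 with EN2 against 5.82 ± 0.055 in NC (SD, n = 2 each). That difference of 0.50 did not pass (limma adjusted p = 0.0801), although both PC9 EN2 arrays lay above both PC9 NC arrays. Whether the EN2 probes lie within the expressed construct is not stated in the labels, which limits these values as a check of overexpression. Epithelial markers, among them EPCAM, CDH1, ELF3 and MUC1, were above background in every group, 9 of 9. Background was taken as the 95th percentile of 100 spike-in control probe sets, 4.41 in A549 and 3.89 in PC9. Replicate arrays of a group correlated at 0.997 across genes. The 18S rRNA control signal was 11.66 and 12.12 in A549 EN2, against 12.44 and 12.74 in A549 NC. In PC9 it lay between 6.05 and 6.10 on all arrays. The log2 gap between the 3′ and 5′ probe sets of ACTB, a sign of RNA quality, was 0.98 and 0.88 in A549 EN2, against 0.79 and 0.78 in A549 NC, and 1.29 and 1.03 in PC9 EN2, against 1.09 and 1.13 in PC9 NC. The number of arrays limits the precision. With groups of 2, the smallest two-sided p of an exact permutation test is 0.333, so all p-values come from limma's test across all genes.

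Of the 64 genes, 45 lay above background in all 4 groups, 8 in some groups and 11 in none. That cut-off is low for some probes. Control probe sets for background read 5.04 to 5.11 in A549 and 4.59 to 4.63 in PC9 with 17 G and C bases per probe. With 20 such bases they read 6.14 to 6.22 and 5.78 to 5.83. A dim gene above the cut-off was therefore not shown to be expressed. The array values show the bright set plainly. KRT18 read 12.84 and 12.90 in A549 EN2, 13.03 and 13.12 in A549 NC, 14.19 and 14.18 in PC9 EN2, and 14.20 and 14.21 in PC9 NC. KRT8, its usual partner, read 12.23 and 12.29 in A549 EN2, 12.45 and 12.49 in A549 NC, 13.62 and 13.76 in PC9 EN2, and 13.84 and 13.83 in PC9 NC. Both were bright in every group and brighter in PC9 than in A549. KRT7 read 12.92 and 12.94 in A549 EN2, 12.85 and 12.92 in A549 NC, 13.44 and 13.31 in PC9 EN2, and 13.36 and 13.27 in PC9 NC. Of the desmosome genes, DSG2, the desmoglein of simple epithelia, lay between 9.89 and 10.26 on all 8 arrays, and DSP between 10.47 and 11.11. Different probe sets bind with different strength, so these log2 signals rank no gene against another. The 11 genes at background in every group were DSC1, DSC3, KRT12, KRT23, KRT24, KRT26, KRT27, KRT28, KRT39, KRT74 and KRT77. Their array values ran from 3.01 to 4.51 in A549 EN2, 3.07 to 4.43 in A549 NC, 2.81 to 3.87 in PC9 EN2 and 2.78 to 3.69 in PC9 NC. Of those above background in some groups, DSG4, KRT20, KRT72, KRT78 and KRT79 lay between 3.85 and 4.77 on all arrays, and DSG1, KRT222 and KRT37 are taken up with the line difference.

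**Figure D1:**
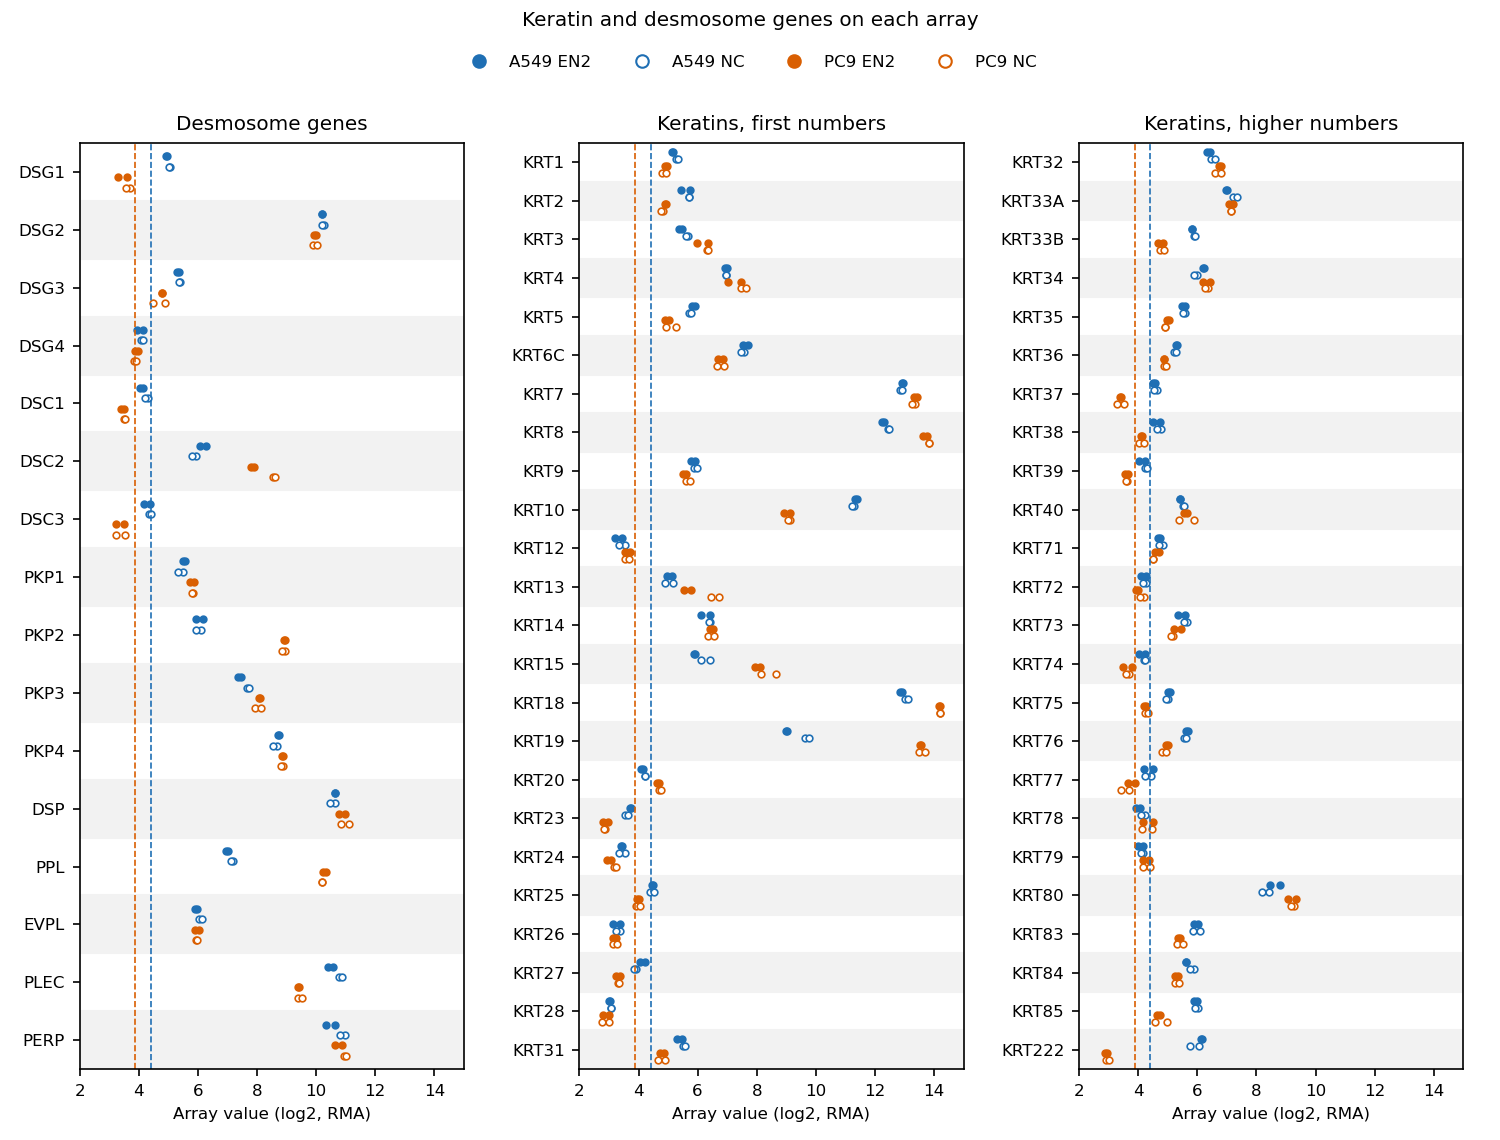
Array values (log2, horizontal axis) of all 64 genes, 1 point per array, filled for EN2 and open for NC, blue for A549 and orange for PC9; dashed lines mark the spike-in background of 4.41 in A549 and 3.89 in PC9. KRT19, PPL, PKP2 and DSC2 show wide gaps between the lines, and within a line the filled and open points mostly lie close together.

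With EN2 in A549, 2 of the 64 genes fell and none rose, and both were type I keratins of simple epithelium. Called genes, at an adjusted p below 0.05, were 3.12% of the 64, against 2.72% of all genes, a share near the background. Among all genes 1.15% fell and 1.57% rose. KRT19 read 8.98 and 9.01 in A549 EN2, against 9.62 and 9.77 in A549 NC. Both EN2 arrays lay below both NC arrays, and KRT19 was 1.62-fold lower (log2 difference -0.70, SE 0.080, limma adjusted p = 0.0021). KRT18, with the array values given above, was 1.15-fold lower (log2 difference -0.20, SE 0.045, limma adjusted p = 0.0476). In bulk RNA, fewer cells with a transcript and less of it per cell cannot be told apart. KRT18 passed the threshold narrowly, and its call ended in 14 of the 18 alternative settings, including the removal of any PC9 array or of any A549 array other than NC replicate 1. The KRT18 probe set carries a suffix for possible cross-hybridisation, and KRT18 has many pseudogenes, so its signal may be shared. The 18S signal and the ACTB gap moved with the same groups, and the part of the ACTB gap was not tested. With the 18S signal as a covariate KRT19 stood at -0.54 (limma adjusted p = 0.461) and KRT18 at -0.07 (adjusted p = 1). At an unadjusted p below 0.05 there were 12 of the 64 genes, a share near the 17.4% of all genes. Without the 2 A549 arrays at the ends of the 18S range, EN2 replicate 1 and NC replicate 2, KRT19 stood at -0.61 and KRT18 at -0.13. Neither kept its call there.

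No type II keratin passed in A549, 0 of 21, although KRT8 lay lower on every probe set. Its brightest probe set differed by -0.21 (95% interval -0.33 to -0.09, limma adjusted p = 0.0773). All 8 KRT8 probe sets were negative, between -0.45 and -0.20, and 2 of these passed when every probe set on the array was tested. All 8 are marked for possible cross-hybridisation, so they are not independent readings. KRT7 differed by 0.05 (95% interval -0.07 to 0.17). KRT80, a type II keratin of many epithelia, read 8.79 and 8.46 in A549 EN2, against 8.41 and 8.20 in A549 NC. The EN2 arrays lay above, but the difference of 0.32 did not pass (limma adjusted p = 0.244). Basal and stratified keratins gave no call either. KRT5, KRT14 and KRT15 differed by 0.11, -0.13 and -0.36, and KRT4 and KRT13 by -0.02 and 0.03. KRT10, the type I keratin of the suprabasal epidermis, read 11.39 and 11.34 in A549 EN2, against 11.30 and 11.23 in A549 NC, a difference of 0.10 that did not pass.

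The other keratins above background, most of them of epidermis, hair and nail, gave no call with EN2 in either line. KRT33A averaged 6.99 ± 0.0090 in A549 EN2 and 7.28 ± 0.095 in A549 NC (SD, n = 2 each), a difference of -0.29 (limma adjusted p = 0.115). KRT34 averaged 6.22 ± 0.035 in A549 EN2 and 5.95 ± 0.072 in A549 NC (SD, n = 2 each), a difference of 0.27 (limma adjusted p = 0.195). These hair keratins lay on opposite sides of their controls. The remaining 20 lay between 4.47 for KRT25 and 7.69 for KRT6C in A549 EN2, and between 4.40 and 7.56 in A549 NC for the same genes. In PC9 they lay between 3.96 and 6.85 with EN2 and between 3.91 and 6.88 in NC. Their differences with EN2 ranged from -0.20 for KRT3 to 0.09 for KRT6C in A549 and from -0.17 for KRT3 to 0.18 for KRT73 in PC9, with a lowest adjusted p of 0.304 in A549 and 0.903 in PC9.

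None of the 16 desmosome genes passed in A549, and at an unadjusted p below 0.05 there were 5 of the 16, against the 17.4% of all genes given above. PLEC, plectin, read 10.40 and 10.57 in A549 EN2, against 10.76 and 10.88 in A549 NC, a difference of -0.33 (limma adjusted p = 0.0629). Without A549 EN2 replicate 2 it stood at -0.42. That fit keeps EN2 replicate 1, which had the lowest 18S signal (11.66) and the widest ACTB gap (0.98) of the A549 arrays. The 18S limit given for KRT19 and KRT18 holds for the desmosome genes in A549 as well. PERP read 10.66 and 10.33 with EN2, against 10.97 and 10.81 in NC, a difference of -0.40 (adjusted p = 0.106). In both genes the EN2 arrays lay below the NC arrays, as they did on all 3 probe sets of PERP. PKP3, a plakophilin of most epithelia, read 7.44 and 7.35 in A549 EN2, against 7.67 and 7.73 in A549 NC, a difference of -0.31 (limma adjusted p = 0.116). DSC2, the most widely expressed desmocollin, lay on the other side, with 6.29 and 6.07 in A549 EN2 against 5.93 and 5.82 in A549 NC, a difference of 0.31 (adjusted p = 0.134). The other 8 desmosome genes above background did not pass either. PPL differed by -0.17 (95% interval -0.34 to -0.01, limma adjusted p = 0.264), EVPL by -0.14 (-0.33 to 0.06), PKP1 by 0.14 (-0.07 to 0.35) and PKP4 by 0.10 (-0.06 to 0.27), all without overlap of the arrays. DSG2 differed by -0.03 (-0.18 to 0.12), DSG3 by -0.035 (-0.30 to 0.23), DSP by 0.09 (-0.14 to 0.32) and PKP2 by 0.03 (-0.21 to 0.26), with overlapping arrays. Over the 64 genes the median difference was -0.06 and 68.8% were negative, against a median of -0.0015 and 50.6% negative over all genes. Both EN2 arrays lay below both NC arrays for 23 of the 64 genes and above for 13, against 23.5% below and 24.1% above, 47.6% in all, among all genes.

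**Figure D2:**
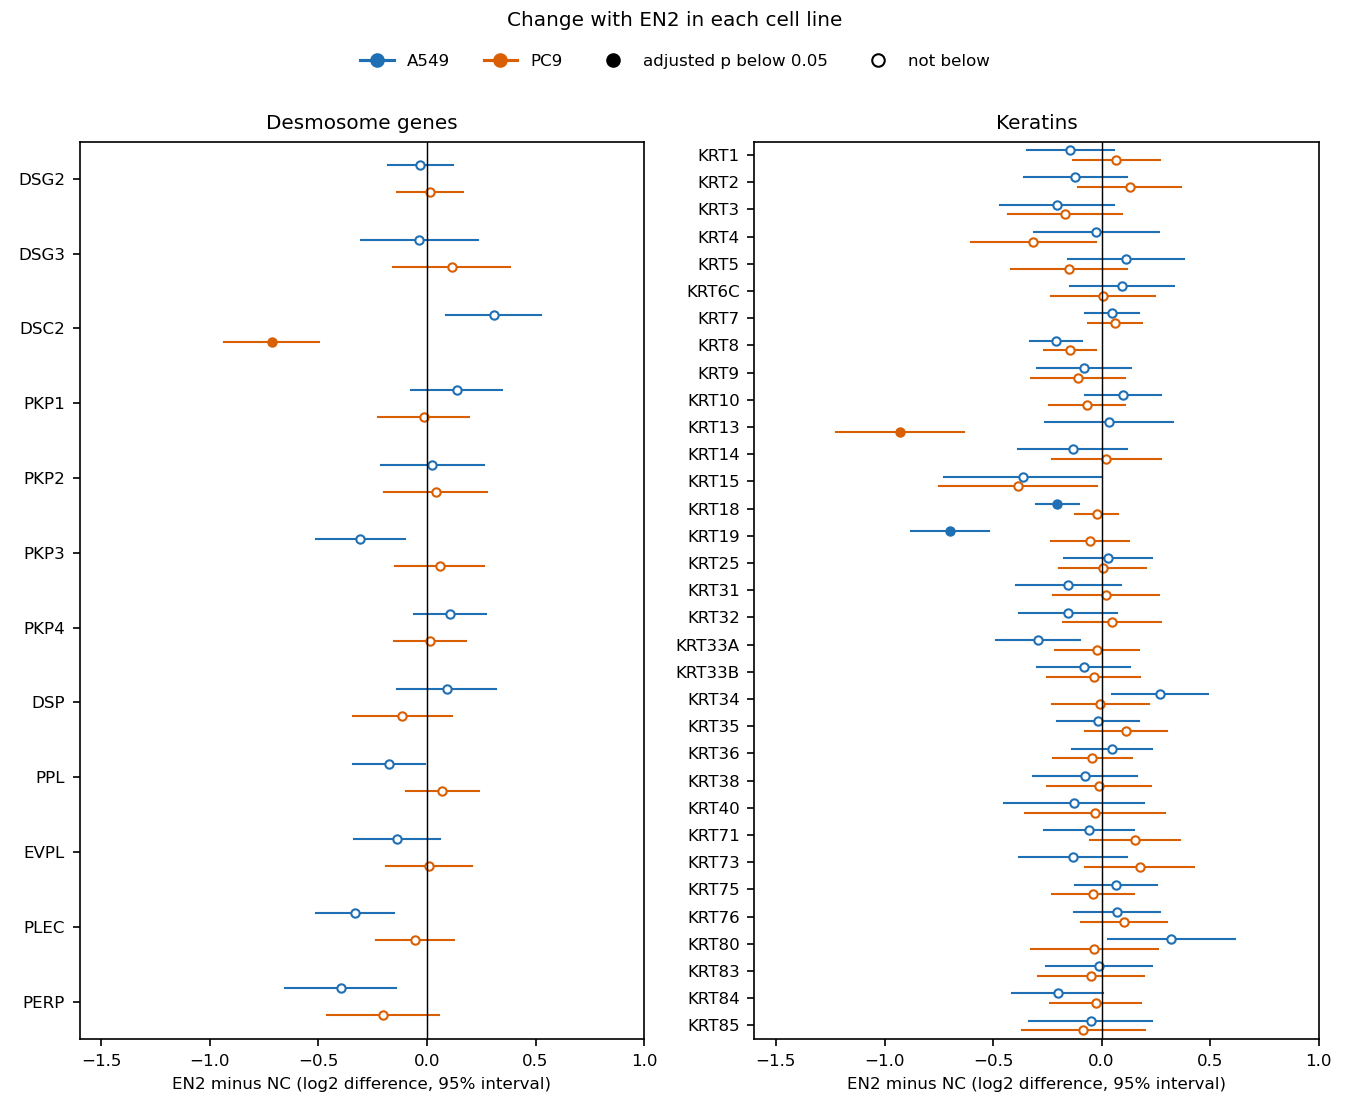
Log2 difference between EN2 and NC with its 95% interval for the 45 genes above background in all groups, desmosome genes on the left and keratins on the right, A549 in blue and PC9 in orange; filled points had an adjusted p below 0.05. The filled points are KRT19 (-0.70) and KRT18 (-0.20) in A549 and DSC2 (-0.72) and KRT13 (-0.93) in PC9.

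With EN2 in PC9, again 2 of the 64 genes fell and none rose, but they were a desmocollin and a keratin of stratified epithelium. Called genes made up 3.12% of the 64, against 0.367% of all genes, of which 0.219% fell and 0.148% rose. DSC2 read 7.81 and 7.90 in PC9 EN2, against 8.55 and 8.59 in PC9 NC. The groups did not overlap, and DSC2 was 1.64-fold lower (log2 difference -0.72, SE 0.097, limma adjusted p = 0.0157). KRT13, a type I keratin of moist stratified epithelium, read 5.55 and 5.77 in PC9 EN2, against 6.47 and 6.71 in PC9 NC. Its EN2 arrays also lay below both NC arrays, and KRT13 was 1.90-fold lower (log2 difference -0.93, SE 0.13, limma adjusted p = 0.0198). Both calls ended when any of the 4 PC9 arrays was left out, with limma adjusted p-values of 0.089 to 0.178 for DSC2 and 0.0643 to 0.207 for KRT13. DSC2 then differed by -0.76 to -0.67 and KRT13 by -1.05 to -0.81. The mean of all DSC2 probe sets differed by -0.50 (limma adjusted p = 0.0536).

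The other genes of the 64 gave no call in PC9, where 0.367% of all genes were called. KRT4, the type II keratin usually paired with KRT13, read 7.04 and 7.46 in PC9 EN2, against 7.48 and 7.64 in PC9 NC, a difference of -0.32 (limma adjusted p = 0.698). Its EN2 arrays lay just below the NC arrays. KRT15 read 7.92 and 8.12 with EN2, against 8.16 and 8.66 in NC, a difference of -0.39 (adjusted p = 0.719). KRT8 differed by -0.15 (95% interval -0.27 to -0.03, adjusted p = 0.612) and was negative on all 8 probe sets here as well. KRT18 differed by -0.02 (95% interval -0.12 to 0.08), KRT19 by -0.05 (-0.23 to 0.13) and KRT7 by 0.06 (-0.06 to 0.18). DSG2, the cadherin that pairs with DSC2 in simple epithelium, differed by 0.02 and PKP2 by 0.04, with overlapping arrays. DSP differed by -0.11 (95% interval -0.34 to 0.11) and PERP by -0.20 (-0.46 to 0.05). Both EN2 arrays lay below both NC arrays for 11 of the 64 genes and above for 6, against 15.2% and 17.7% of all genes, 32.9% in all. The median over the 64 genes was -0.01 and 59.4% were negative, against 0.0040 and 47.9% over all genes.

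Different probe sets of a gene are further readings of its RNA, but not always independent ones. All 8 KRT8 probe sets and both KRT18 probe sets carry the suffix for possible cross-hybridisation. Their agreement may therefore come from shared signal. DSC2 had 6 probe sets, all negative in PC9, between -0.72 and -0.32, with 2 past the threshold when every probe set was tested. In A549 4 of the 6 were positive, and the 6 ranged from -0.02 to 0.31, with none past the threshold. KRT13 had 3 probe sets, all negative in PC9, between -1.66 and -0.93, and 2 of these passed. Both KRT18 probe sets were negative in A549, -0.20 and -0.19, and neither passed when every probe set was tested. KRT19 had a single probe set, so no second reading was available.

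**Figure D3:**
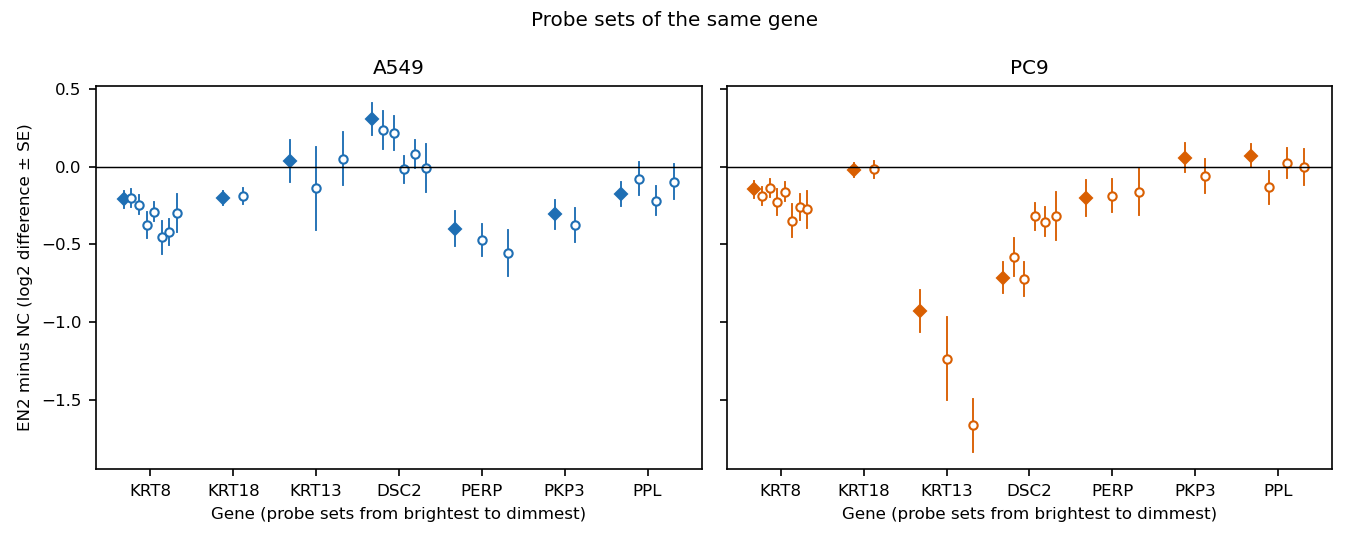
Log2 difference between EN2 and NC with its SE for each probe set of 7 genes, A549 on the left and PC9 on the right; the filled diamond is the brightest probe set, used elsewhere, and open circles are the others in order of brightness. KRT8 is below 0 on all 8 probe sets in both lines, and DSC2 is below 0 on all 6 in PC9. All 8 KRT8 probe sets are marked for possible cross-hybridisation.

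The change with EN2 differed between the lines for 2 of the 64 genes, 3.12%, against 0.784% of all genes (0.46% with a more positive change in A549 and 0.323% with a more negative one). For DSC2 the change in A549 minus that in PC9 was 1.02 on the log2 scale (SE 0.14, limma adjusted p = 0.014). For KRT19 it was -0.65 (SE 0.11, limma adjusted p = 0.039). KRT13 differed as widely, by 0.96, but did not pass (adjusted p = 0.0594). All 3 KRT13 probe sets were positive for this difference, between 0.96 and 1.72, and 1 of these passed when every probe set was tested. The DSC2 call ended when EN2 replicate 1 or NC replicate 2 of A549 or any PC9 array was left out, with adjusted p-values of 0.0507 to 0.073. The KRT19 call ended without EN2 replicate 1, EN2 replicate 2 or NC replicate 2 of A549, EN2 replicate 1 or 2 of PC9, or NC replicate 1 of PC9, with adjusted p-values of 0.0668 to 0.161. The difference for KRT18 was -0.18 (adjusted p = 0.3), so its change was not shown to differ between the lines.

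The stretches before the DSC2 and DSG2 starts are shown because both genes belong to the same cadherin cluster, yet DSC2 differed with EN2 in PC9 and DSG2 was not called. Each line gives the 250 bases before a transcript start, 5′ to 3′ on the gene's own strand, from RefSeq on GRCh38.p14. Capitals mark an engrailed-type homeodomain core, searched as TAATTA and as CAATTA, the second reading TAATTG on the other strand, with both strands scanned. In DSC2 the first start has a core 95 bases before it, and the second start and DSG2 have no match in these windows. The first DSC2 stretch is chr18:31102422-31102671, the second chr18:31101261-31101510, both on the minus strand, and the DSG2 stretch is chr18:31497927-31498176 on the plus strand.
DSC2, first start: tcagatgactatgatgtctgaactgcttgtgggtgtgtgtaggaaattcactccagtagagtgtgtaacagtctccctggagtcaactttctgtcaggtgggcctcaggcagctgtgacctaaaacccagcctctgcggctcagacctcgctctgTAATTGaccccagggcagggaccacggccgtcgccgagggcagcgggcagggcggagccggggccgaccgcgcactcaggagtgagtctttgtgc
DSC2, second start: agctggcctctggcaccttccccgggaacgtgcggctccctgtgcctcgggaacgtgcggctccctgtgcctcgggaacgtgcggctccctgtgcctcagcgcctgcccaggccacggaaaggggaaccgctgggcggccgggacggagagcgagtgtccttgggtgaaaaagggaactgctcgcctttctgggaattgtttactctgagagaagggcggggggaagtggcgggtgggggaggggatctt
DSG2: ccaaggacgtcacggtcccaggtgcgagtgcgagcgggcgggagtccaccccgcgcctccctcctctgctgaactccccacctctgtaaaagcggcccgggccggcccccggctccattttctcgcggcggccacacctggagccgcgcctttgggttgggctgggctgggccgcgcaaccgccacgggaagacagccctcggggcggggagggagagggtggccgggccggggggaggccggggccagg

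Either core is present in 10.4% of the 35116 RefSeq promoter windows of this length, TAATTA in 4.35% and CAATTA in 6.7%. Of the 64 genes, 43 had promoter entries, 49 windows in all, and 15 windows held either core. Most of those belong to keratins of hair or stratified epithelium that were not called with EN2, such as KRT85, KRT3 and KRT34. These matches describe letters only. No window was at hand for KRT13, KRT18 or KRT19.

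The 2 lines differed far more from each other than either did with EN2. Between A549 NC and PC9 NC, 34 of the 64 genes were higher in A549 and 18 were lower, 81.2% in all, against 75.8% of all genes (46% higher and 29.7% lower), a share close to the background. At least 2-fold differences were found for 8 higher and 8 lower genes, 25% of the 64, against 22.9% of all genes (12.8% higher and 10.1% lower). Among the 45 genes above background in all groups, 4 were at least 2-fold higher (8.89%) and 8 lower (17.8%), against 12.8% and 10.9% of the 14805 genes above background in all groups. The labels do not say that both lines were normalised together, and the median of all genes was 0.17 higher in A549. Quantile normalisation over all arrays removed that median shift and left 22 genes higher and 24 lower. Of the 11 genes at background everywhere, 8 counted as higher in A549, where the spike-in background was higher too. The background control probe sets also read higher in A549 at every number of G and C bases. Among these 8 genes was DSC3, at 1.01 on the log2 scale.

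The 4 keratins of simple epithelium were all lower in A549. KRT19 was 14.9-fold lower, with 9.62 and 9.77 in A549 NC against 13.48 and 13.70 in PC9 NC (log2 difference -3.90, limma adjusted p = 1.97e-10). KRT8 was 2.58-fold and KRT18 2.19-fold lower, and KRT7 differed less, at 1.35-fold lower. The 8 KRT8 probe sets ranged from -1.37 to -0.72 on the log2 scale, so its fold depends on the probe set. The basal keratin KRT15 read 6.10 and 6.43 in A549 NC, against 8.16 and 8.66 in PC9 NC, and was 4.42-fold lower. KRT13 was 2.97-fold, KRT80 1.90-fold and KRT4 1.51-fold lower. All of these calls had A549 arrays below PC9 arrays without overlap, as did 19 of the 64 genes and 35% of all genes. A549 arrays lay above without overlap for 37 of the 64, against 53.4% of all genes, and the arrays did not overlap for 88.4% of all genes. The basal type II keratin KRT5 was 1.56-fold higher in A549, but its 2 probe sets differed by 0.64 and 0.04 on the log2 scale. KRT14 did not pass. KRT10 also went the other way, with 11.30 and 11.23 in A549 NC against 9.14 and 9.07 in PC9 NC, 4.48-fold higher. KRT222, a short keratin-like gene, read 5.76 and 6.07 in A549 NC, against 2.90 and 3.01 in PC9 NC, below the PC9 background. The 2 KRT222 probe sets differed by 2.96 and 0.63 on the log2 scale. Of the 20 keratins given above by range, 17 counted as higher in A549 and 1, KRT3, as lower, but after quantile normalisation 8 counted as higher and 3 as lower (KRT3, KRT32 and KRT40), and KRT9, KRT36 and KRT71 turned to the lower side without passing. The hair keratins KRT33B and KRT85 were 2.16-fold and 2.29-fold higher in A549, but the 3 KRT85 probe sets ranged from 0.31 to 1.19 on the log2 scale. KRT37 read 4.64 and 4.52 in A549 NC, against 3.29 and 3.52 in PC9 NC, at background.

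Each desmosome family held members with a difference between the lines. PPL, periplakin, read 7.20 and 7.12 in A549 NC, against 10.21 and 10.22 in PC9 NC, 8.30-fold lower (limma adjusted p = 5.39e-10). PKP2, the plakophilin of simple epithelium and heart, read 6.12 and 5.92 in A549 NC, against 8.96 and 8.84 in PC9 NC, 7.34-fold lower. DSC2 read 5.93 and 5.82 in A549 NC, against 8.55 and 8.59 in PC9 NC, 6.47-fold lower. The A549 arrays lay below the PC9 arrays for all 3, and all their probe sets were negative. The log2 differences of the probe sets ranged from -3.05 to -0.75 for PPL, -3.71 to -2.88 for PKP2 and -2.76 to -0.10 for DSC2. DSC2 stood lower in A549 NC than in PC9 EN2, where it had fallen. PLEC read 10.76 and 10.88 in A549 NC, against 9.40 and 9.51 in PC9 NC, 2.57-fold higher. DSP was 1.34-fold lower and DSG2 1.21-fold higher, while PERP and EVPL did not pass. PKP1, PKP3 and PKP4 had probe sets called in both directions, with 2 of 3, 1 of 2 and 3 of 4 positive, so no direction is given for them, although their brightest probe sets count among the 18 lower. DSG1, an epidermal desmoglein, read 5.05 and 5.03 in A549 NC, against 3.70 and 3.58 in PC9 NC, where it was at background. Its 3 probe sets ranged from 0.21 to 1.40 on the log2 scale. The dimmer ones read 3.04 to 3.31 in A549 NC, below the A549 background, so expression in A549 was not shown.

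**Figure D4:**
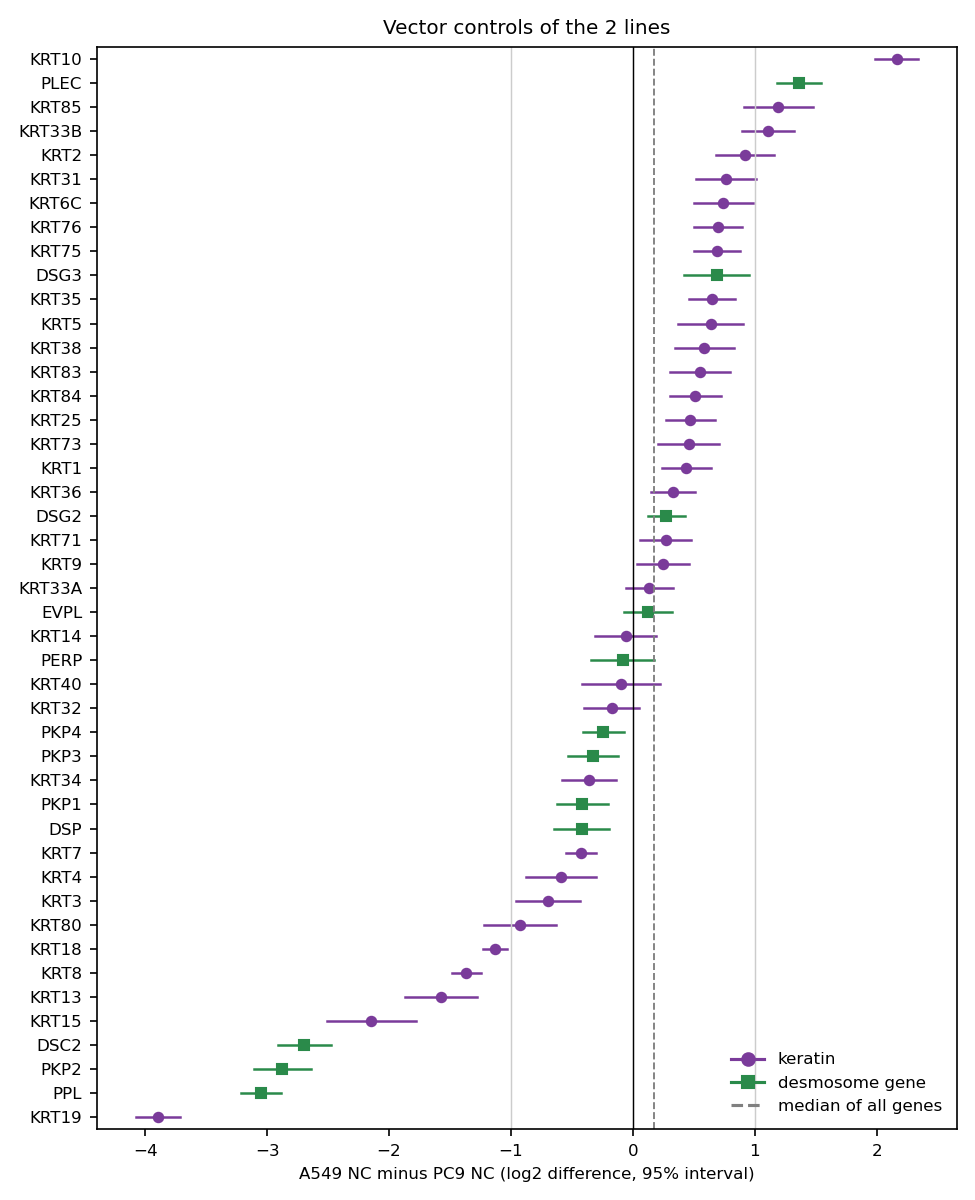
Log2 difference between A549 NC and PC9 NC with its 95% interval for the 45 genes above background in all groups, keratins as purple circles and desmosome genes as green squares, in order of the difference; the dashed line is the median of all genes (0.17). KRT10 (2.16) stands highest, and KRT19 (-3.90), PPL (-3.05), PKP2 (-2.88) and DSC2 (-2.69) lowest.

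Genes that work beside keratins and desmosomes gave scattered calls with EN2. In A549 these calls carry the limit of the 18S signal. With that covariate the calls over all genes in A549 went from 287 higher and 209 lower to 5 and 15. Which of the listed genes kept a call was not examined. Of 10 measured desmosome and hemidesmosome partners, 1 fell in each line (10%), against 1.15% of all genes in A549 and 0.219% in PC9. At an unadjusted p below 0.05 there were 5 of the 10 in A549, against 17.4% of all genes, and 1 in PC9, against 6.75%. ITGB4, the hemidesmosome integrin chain that binds plectin, averaged 7.74 ± 0.036 in A549 EN2 and 8.14 ± 0.014 in A549 NC (SD, n = 2 each; log2 difference -0.39, limma adjusted p = 0.0287). DST, the plakin dystonin, averaged 8.35 ± 0.029 in PC9 EN2 and 8.81 ± 0.022 in PC9 NC (SD, n = 2 each; log2 difference -0.46, limma adjusted p = 0.0221). JUP, plakoglobin, differed by 0.08 in A549 and -0.01 in PC9. In the cornified envelope and keratinocyte list, 1 of 25 rose in A549 (4%), against 1.57% of all genes. It was CSTA, the protease inhibitor cystatin A (0.89, limma adjusted p = 0.00888). Its mean in A549 was 6.99 with EN2 and 6.10 in NC. Of the 25 differences in A549, 18 were negative and 7 positive, with a median of -0.05. None passed in PC9, where 7 of the 25 had an unadjusted p below 0.05, against 6.75% of all genes. Among 15 other intermediate filament genes, 1 fell in A549 (6.67%), against 1.15% of all genes. It was NEFL, the light neurofilament chain (-0.50, limma adjusted p = 0.0149). None passed in PC9, with none at an unadjusted p below 0.05. In A549, 4 of the 25 keratinocyte genes and 2 of these 15 had an unadjusted p below 0.05, near or below the 17.4% of all genes. VIM, the mesenchymal filament protein, averaged 12.85 ± 0.037 in A549 NC and 4.09 ± 0.071 in PC9 NC (SD, n = 2 each). It differed by 0.04 with EN2 in A549 and by 0.03 in PC9.

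Of 11 squamous and basal transcription factors, 2 rose in A549 (18.2%), against 1.57% of all genes, and none passed in PC9. At an unadjusted p below 0.05 there were 4 of the 11 in A549, against 17.4% of all genes, and 1 in PC9, against 6.75%. TFAP2C, an AP-2 factor active in keratinocytes, averaged 8.85 ± 0.032 in A549 EN2 and 8.04 ± 0.22 in A549 NC (SD, n = 2 each; log2 difference 0.81, limma adjusted p = 0.0032). PRDM1, a transcriptional repressor, averaged 7.91 ± 0.26 in A549 EN2 and 6.88 ± 0.46 in A549 NC (SD, n = 2 each; log2 difference 1.03, limma adjusted p = 0.0291). The TFAP2C change differed between the lines by 0.78 (adjusted p = 0.0419). Of the 9 epithelial markers, 2 fell in A549 (22.2%), against 1.15% of all genes. They were CDH1 and EPCAM, by 1.11 and 0.77 on the log2 scale (limma adjusted p = 0.000384 and 0.00075). The limit of the 18S signal holds for these A549 calls as well. None of the 9 passed in PC9, where none had an unadjusted p below 0.05. Markers of cells that should be absent gave no call with EN2 in either line, 0 of 8 for fibroblasts, 0 of 5 for endothelium and 0 of 5 for leukocytes by limma, with 2, 1 and 1 at an unadjusted p below 0.05 in A549 and none in PC9. Above background were 4 of 8, 4 of 5 and 3 of 5 of them in both A549 groups. Summed on the linear scale, the fibroblast markers ranged over 233 to 241 in A549 EN2 and 246 to 250 in A549 NC, and the endothelial markers over 283 to 298 in A549 EN2 and 275 to 278 in A549 NC. The leukocyte markers summed to 437 to 463 in A549 EN2 and 509 to 519 in A549 NC, with CD68 the brightest. In PC9 the 3 lists summed to 193 to 201, 334 to 338 and 651 to 669 with EN2, and to 195 to 201, 329 to 344 and 613 to 684 in NC. Their part in the keratin and desmosome differences was not tested.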

How the data were processed

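Per the labels, biotin-labelled cDNA made from total RNA was measured on arrays of 1 colour. The log2 values deposited by the authors are RMA summaries, as the submitters' processing notes say. The version of RMA is not given in the sources used here, nor is it stated that the 2 lines shared a normalisation. Of 49495 probe sets, 45284 carried 1 gene symbol, and the brightest by the mean of the 8 arrays stood for each of 18244 genes. The rule matches 71 RefSeq protein-coding genes. KRT16, KRT17, KRT6A, KRT6B, KRT81, KRT82 and KRT86, without a probe set of their own symbol alone, were not analysed here. Of the 64 genes, 40 had 1 probe set and 24 had more, and 5 were read by a probe set marked for cross-hybridisation: DSC1, KRT14, KRT18, KRT8 and PERP. Another suffix marks probes shared by several transcripts, and with it the marked genes number 13. It was carried by the probe sets of DSC2, DSG2, DSP, PLEC, PKP4, KRT33A, KRT39 and KRT40.

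In limma 3.58.1 (R 4.3.3), lmFit estimated the 4 group means from all 8 arrays, leaving 4 residual degrees of freedom, and eBayes was run with trend = TRUE. Tests were two-sided. P-values were adjusted by Benjamini-Hochberg over all genes, with a call at an adjusted p below 0.05. Intervals are 95% intervals of limma's fit. No filter on dim genes was applied. The alternatives, all listed together with the tests, changed the prior variance, dim genes, normalisation, probe set, adjustment, replicate block, 18S covariate and arrays. Named genes were those called with EN2 in a line or in the difference of changes, and those above background in all groups. Of genes above background in only some groups, those called at least 2-fold apart between the NC groups were named. EN2 and up to 4 genes of each related list by p were added. The genes, lists and alternatives were chosen with earlier results of these data known. Lists were described by counts and not tested as sets. Replicate numbers were not taken as pairs, since correlations of same-numbered deviations between groups ranged from -0.08 to 0.35. Promoter windows come from RefSeq on GRCh38.p14.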

Additional observations from a re-analysis of the deposited data

Results flagged for a closer look

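For DSC2 and KRT19 the test of the difference between the lines passed. The change of DSC2 with EN2 was 0.31 in A549 and -0.72 in PC9, a difference of 1.02 on the log2 scale. The change of KRT19 was -0.70 in A549 and -0.05 in PC9, a difference of -0.65.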

How the results depend on the processing

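Sign changes between values that did not pass in either setting were counted as unchanged. In A549, of 852 repeated values for the named genes, 830 were unchanged, 18 lost and 4 gained the call. In PC9, 840 of 852 were unchanged and 12 lost the call. For the difference of changes, 784 of 803 were unchanged, 17 lost and 2 gained the call. Between the NC groups, 776 of 852 were unchanged, 48 lost and 4 gained the call, and 24 reversed.

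Of the genes called lower in A549, 2 became 1 without the intensity trend, with quantile normalisation, with the mean of probe sets, with every probe set tested and with the arrays of the line alone, 0 with the 18S covariate or without both outer arrays, and 1 to 2 with an array left out. Without A549 EN2 replicate 2 the 2 were KRT19 and PLEC (PLEC -0.42, adjusted p = 0.0417). The genes called lower in PC9 became 1 among brighter genes, with the mean of probe sets or the line alone, 0 without both outer arrays, and 0 to 2 with an array left out. Those fits take the remaining array of a group to vary like the other groups. For the difference of changes, the 1 gene on each side became 0 with the 18S covariate or without both outer arrays and 0 to 1 with an array left out, and the lower one also became 0 without the intensity trend.

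The replicate block, whose numbers are not taken as pairs, gave 4 genes lower in A549 (adding KRT8, adjusted p = 0.0439, and PLEC, 0.022), 1 higher (KRT80, 0.0499) and 2 with a more positive difference (adding KRT13, 0.0326).

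Of 34 genes higher in A549 NC than in PC9 NC, 4 were counted among the 19 brighter genes tested, 22 with quantile normalisation and 0 with the 18S covariate, which also left 0 of 18 lower. That covariate nearly coincides with the line. Under it DSC2 read 0.15, DSG3 -0.11, DSP 0.32, KRT1 -0.58, KRT2 -1.97, KRT25 -0.76, KRT38 -1.29, KRT4 0.045, KRT5 -1.47, KRT6C -0.53, KRT76 -0.60, KRT80 3.79, PKP1 0.082, PKP2 0.75, PKP3 0.049, PKP4 0.86 and PLEC -1.21. Quantile normalisation gave KRT36 -0.076, KRT71 -0.17 and KRT9 -0.042. The mean of probe sets gave KRT40 0.32, PKP1 0.20, PKP3 0.47 and PKP4 0.59. The cause was not tested.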

Other observations

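Probe sets for keratin pseudogenes and an antisense gene were measured beside the keratins. The KRT18P55 probe set read 7.22 and 7.44 in A549 EN2, against 7.51 and 7.54 in A549 NC, and 8.32 and 8.27 in PC9 EN2, against 8.33 and 8.32 in PC9 NC. The EN2 arrays lay below the NC arrays in A549, as for KRT18. The brighter probe set of KRT10-AS1, which is antisense to KRT10, read 9.89 and 9.95 in A549 EN2, against 10.00 and 10.24 in A549 NC, and 9.17 and 9.16 in PC9 EN2, against 9.16 and 9.18 in PC9 NC. It lay lower with EN2 in A549, where KRT10 lay higher. The KRT16P1 probe set lay between 4.42 and 4.98 on all arrays. The 3 probe sets of KRT17P5 lay between 4.54 and 6.03. None of these values was tested here.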
